A study of Mus musculus with 14 samples.

Results

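The family of miR-34 and miR-449 is a group of related microRNAs (miRNAs), of which the tumour suppressor p53 is best known for inducing the miR-34 genes. Its members were taken by name from a comparison of exosomes released by adipose tissue macrophages (ATMs) of obese and lean mice. The rule uses names alone, but earlier results of these data were known when it was set. Of the 6 hairpin names, mmu-mir-34a, mmu-mir-34b, mmu-mir-34c, mmu-mir-449a, mmu-mir-449b and mmu-mir-449c, 5 have a row among the 539 hairpins of the authors' deposited table. The hairpin mir-449b was not analysed here. A hairpin is the folded precursor that holds a 5p and a 3p mature strand, and the rows do not tell these arms apart.

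Macrophages positive for CD11b and F4/80 came from adipose tissue of C57BL/6 mice, with 7 libraries labelled obese and 7 labelled lean. Both groups were handled alike: the cells spent 72 hours in IMDM with 10% serum freed of exosomes, vesicles were spun out of the medium in an ultracentrifuge, and total RNA was made into small RNA libraries. The age labels run from 24-26 to 24-32 weeks in the obese group and from 24-33 to 24-39 weeks in the lean group, so age and obesity cannot be told apart if these labels hold. Their upper ends rise in even weekly steps from sample to sample, without a break between the groups. Whether they are true ages is therefore uncertain. Diet, sex and the number of animals behind a library are not in the labels, so p-values reflect no more than how these libraries vary, which may be technical. The macrophages were cultured before their vesicles were collected, so the cargo is that of cells outside the tissue.

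In mammals, p53 binds upstream of the miR-34a and miR-34b/c genes and raises their transcription, and the mature strands lower proteins of cell division and survival such as CDK6, MET and BCL2, as well as the deacetylase SIRT1. The miR-449 genes lie inside Cdc20b, respond to E2F1 and, with miR-34b/c, are best known from multiciliated epithelium and testis, where in mice they are needed for motile cilia. In adipose tissue miR-34a is the member most studied: in mice, adipocytes were reported to pass it in vesicles to macrophages, where it lowers KLF4 and alternative activation.

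The mature strands are shown first because a shared seed, bases 2 to 8 from the 5′ end and the main determinant of which mRNAs a miRNA pairs with, is what makes these hairpins a family. The sequences are RefSeq's on build GRCm38.p6, written 5′ to 3′ with the seed in capitals.
mmu-miR-34a-5p: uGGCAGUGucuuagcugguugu
mmu-miR-34b-5p: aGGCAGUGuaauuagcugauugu
mmu-miR-449a-5p: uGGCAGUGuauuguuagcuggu
mmu-miR-449c-5p: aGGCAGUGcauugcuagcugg
Among 1738 mature mouse miRNAs of the reference, these 4 strands carry the seed GGCAGUG and no strand from outside the family does. The reference holds no sequence for miR-34c-5p or miR-449b, so these members are named only and their seeds were not checked. Counted from the 5′ end, miR-34a-5p and miR-449a-5p have the same base at 15 of 22 positions, and miR-449a-5p and miR-449c-5p at 18 of 21. The longest run of bases common to any pair of the 4 strands was 7 to 9 bases. As the seed is the same in all 4, they differ only outside it.

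The 3p strands in the reference carry other seeds. The pair from the miR-34b/c cluster is shown because it is the one case there in which 2 members share a 3p seed.
mmu-miR-34b-3p: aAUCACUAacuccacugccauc
mmu-miR-34c-3p: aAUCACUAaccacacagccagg
These had the same base at 17 of 22 positions and a common run of 10 bases. Between whole hairpins, the longest common run was 11 bases, for mir-34a with mir-449a and for mir-34b with mir-34c. The 5 hairpins shared no run of 16 bases with any of 1000 mouse hairpins of the reference outside the family, and none shared 20 bases with a GENCODE M21 transcript of another gene on the transcript's own strand. Within these references a full-length read that matches exactly can therefore be told apart. Shared runs do not measure near matches, so whether reads placed with mismatches could be shared, as between mir-34b and mir-34c, was not tested. The 5p strands of that pair could not be compared, as miR-34c-5p has no sequence in the reference. The alignment settings were not available to judge how reads were placed.

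On GRCm38, GENCODE M21 places the hairpins at 3 loci. The gene Mir34a (ENSMUSG00000065493.1) lies at chr4:150068454-150068555 on the plus strand, and its last 17 bases overlap an exon of Gm37795, an unreviewed transcript on the same strand. Mir34c (ENSMUSG00000065587.1, chr9:51103034-51103110) and Mir34b (ENSMUSG00000065492.1, chr9:51103562-51103645) lie on the minus strand, 451 bases apart, within an intron of Btg4, which is transcribed from the opposite strand. Mir449c (ENSMUSG00000076146.1, chr13:113035983-113036091) and Mir449a (ENSMUSG00000065575.1, chr13:113037534-113037624) lie on the plus strand in an intron of Cdc20b, on that gene's own strand. These hairpins lie 1442 bases from each other.

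Members of the family differed widely in level, over a log2 range of 9.02. In the authors' deposited table mir-34a had a mean log2 expression of 9.14 over both groups, which placed it 90th of 539 hairpins. The next member in the authors' deposited table was mir-34c at 3.10 (239th), followed by mir-449a at 1.79 (300th), mir-34b at 0.64 (382nd) and mir-449c at 0.12 (429th). These are log2 levels and not per length, but the mature strands printed here span only 21 to 23 bases. The median over all 539 hairpins of the authors' deposited table was 2.34, so mir-34a and mir-34c stood above it and mir-34b, mir-449a and mir-449c below it.

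Turned back to a linear scale, the level of mir-34a was 65.5 times that of mir-34c, the next member, and 519 times that of mir-449c, the lowest. By the same measure mir-34a made up 97.5% of the summed level of the 5 hairpins, mir-34c 1.49%, and the other 3 hairpins under 1% each. Of the summed level of the whole table, mir-34a made up 0.104%. These shares come from mean log2 values of the authors' deposited table, so they weigh libraries as a geometric mean does. Since the deposited table has no value per library, the spread behind each level is unknown, and whether neighbours in this order, such as mir-34b and mir-449c, differ beyond it could not be tested. Levels in an exosome preparation also cannot tell fewer vesicles apart from less miRNA per vesicle.

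**Figure D1:**
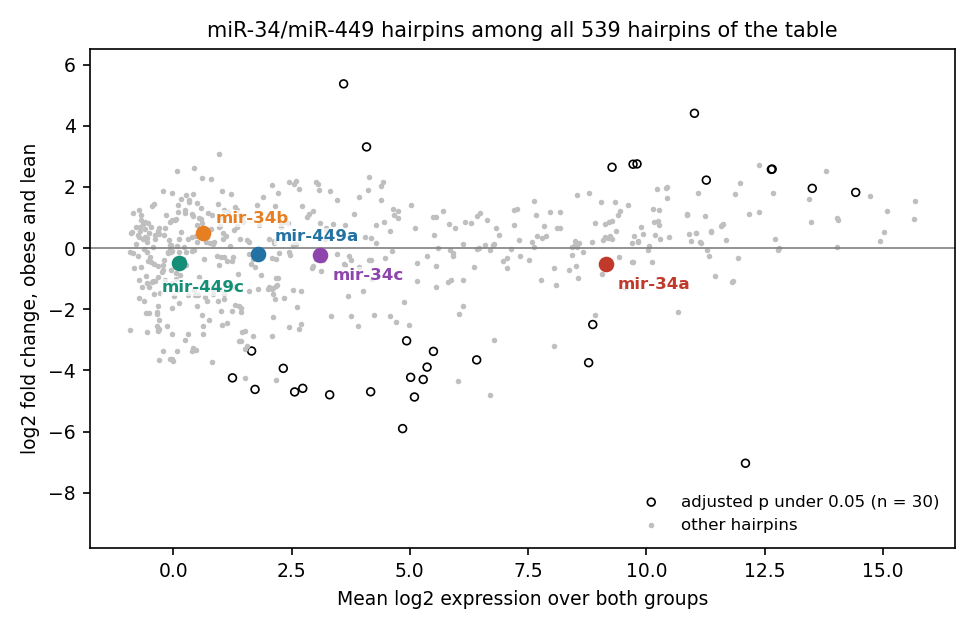
Each point is 1 of 539 hairpins of the authors' deposited table, with the mean log2 expression over both groups on the horizontal axis and the log2 fold change on the vertical axis. Open circles are the 30 hairpins with an adjusted p under 0.05, and the 5 coloured points are the family, with mir-34a at 9.14 on the horizontal axis and the others between 0.12 and 3.10, all within 0.53 of a log2 fold change of 0.

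The comparison asks whether exosomes of obese ATMs carried more or less of each hairpin than those of lean ATMs. The table does not name the numerator of its fold changes. A published study of this material, known apart from these files, found miR-155 raised in obese ATM exosomes. The authors' deposited table has mir-155 at 4.41 on the log2 scale, with an adjusted p by limma of 0.00205. Under that study a positive value means a higher level in the obese group, and every direction below holds only on that reading. A hairpin is called at an adjusted p under 0.05, which 30 of 539 hairpins (5.57%) reached by limma's test in the authors' deposited table. These were 11 on the positive side (2.04%) and 19 on the negative side (3.53%). The 180 hairpins of highest level had a median log2 fold change of 0.34, and with this subtracted from every row the calls were 8 on the positive and 25 on the negative side.

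None of the 5 family members was called, against that background of 5.57%, and none had an unadjusted p under 0.05, which 95 of 539 hairpins (17.6%) had in the authors' deposited table. Measured fold changes were small, between −0.53 and 0.49 on the log2 scale, with 4 members negative and 1 positive. In the authors' deposited table the 5 members had a median log2 fold change of −0.22, beside 0.09 over all hairpins. Their median absolute size was 0.47, beside 0.98 over all hairpins. With 5 members, the count of signs is a description only.

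For mir-34a, the p53 target that dominated the family's level, the authors' deposited table gives a log2 fold change of −0.53, which is 0.692 times the lean level in obese ATM exosomes. Dividing that fold change by t of the authors' deposited table gives a standard error of 0.80, with a 95% interval from −2.21 to 1.14. The p in the authors' deposited table was 0.513, and the adjusted p by limma was 0.795. On the linear scale the interval reaches from 0.217 to 2.21 times the lean level. It therefore leaves room for a 4.61-fold lower or a 2.21-fold higher level in the obese group, but not for a rise of the size seen for mir-155. No direction can be given for mir-34a at this precision.

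The clustered mir-34b and mir-34c, which are transcribed from the same strand close to each other, had fold changes of opposite sign, and neither passed. In the authors' deposited table mir-34c had a log2 fold change of −0.22 (95% interval −1.98 to 1.54, adjusted p by limma 0.937). Its neighbour mir-34b was at 0.49 in the authors' deposited table (95% interval −1.24 to 2.21, adjusted p by limma 0.837), the 1 positive value of the family. The opposite signs are no evidence that the cluster's hairpins differed, since each interval holds the other's estimate. Their difference was not tested, because that needs values per library.

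The Cdc20b-hosted pair likewise did not pass. The authors' deposited table gives mir-449a, the more abundant of these, a log2 fold change of −0.18 (95% interval −2.18 to 1.82, adjusted p by limma 0.948), the smallest change of the family. For mir-449c, the least abundant member, the log2 fold change in the authors' deposited table was −0.47 (95% interval −2.79 to 1.84, adjusted p by limma 0.904). Its standard error of 1.10 was the largest of the 5, so mir-449c is the member about which the table says least.

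**Figure D2:**
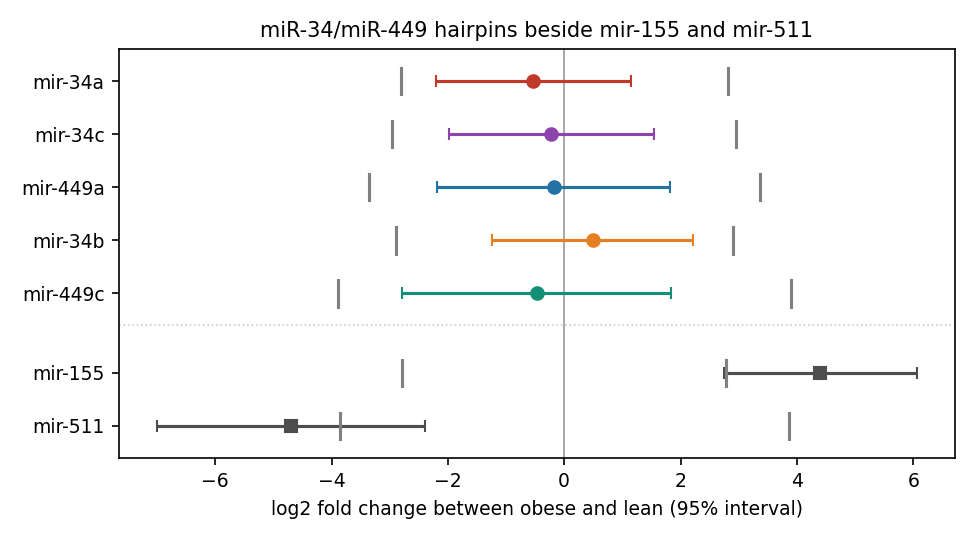
Points are log2 fold changes of the authors' deposited table, with lines for 95% intervals computed from its t, for the 5 family hairpins in order of level and, under the dotted line, for mir-155 and mir-511, a pair of called hairpins. Grey ticks mark the fold change at which each hairpin would have been called: all 5 family intervals include 0 and stay inside their ticks, whereas mir-155 (4.41) and mir-511 (−4.70) lie beyond theirs.

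How large a difference could have been called depends on each hairpin's standard error. The smallest absolute t among called hairpins in the authors' deposited table was 3.53. At that t, mir-34a needed a log2 fold change of 2.81 (7.03-fold), mir-34b 2.90, mir-34c 2.96, mir-449a 3.36 and mir-449c 3.90 (14.9-fold). An estimate of 2-fold or 4-fold in any member would thus have gone uncalled, and the lack of a call does not show equal levels. All 5 intervals extend past a 2-fold difference in both directions, and all 5 exclude a change as large as that of mir-155 (4.41 on the log2 scale) in either direction. Those of mir-34b and mir-449c rest on levels below the lowest of any called hairpin, 1.25 in mean log2 expression. The upper bounds of mir-34a and mir-34c, 1.14 and 1.54, lie below the smallest called positive log2 fold change of the authors' deposited table, 1.82, and the bound of mir-449a is level with it. On the negative side, 4 members have lower bounds above the smallest called negative value, −2.50, the exception being mir-449c.

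Standard errors in this family did not follow level closely. The standard error of mir-34a, 0.80, was near that of mir-34b, 0.82, and mir-34c, 0.84, although mir-34a is far more abundant. Among the 180 most abundant hairpins, which include mir-34a, the median standard error was 0.76 and 8.89% were called. Of the 179 in the middle, which include mir-34c and mir-449a, 7.82% were called at a median standard error of 1.10. None of the 180 least abundant, which include mir-34b and mir-449c, was called at a median of 1.02. The lowest mean log2 expression of a called hairpin was 1.25, above the levels of both. Whether values near the lowest level of the table, −0.92, understate fold changes and standard errors was not tested. A modest standard error of mir-34b is thus not read as precision equal to that of mir-34a. B, the natural log of the odds that a hairpin differs under limma's prior, lay between −6.05 and −5.75 for the 5 members in the authors' deposited table, below the median of −5.50 over all hairpins.

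**Figure D3:**
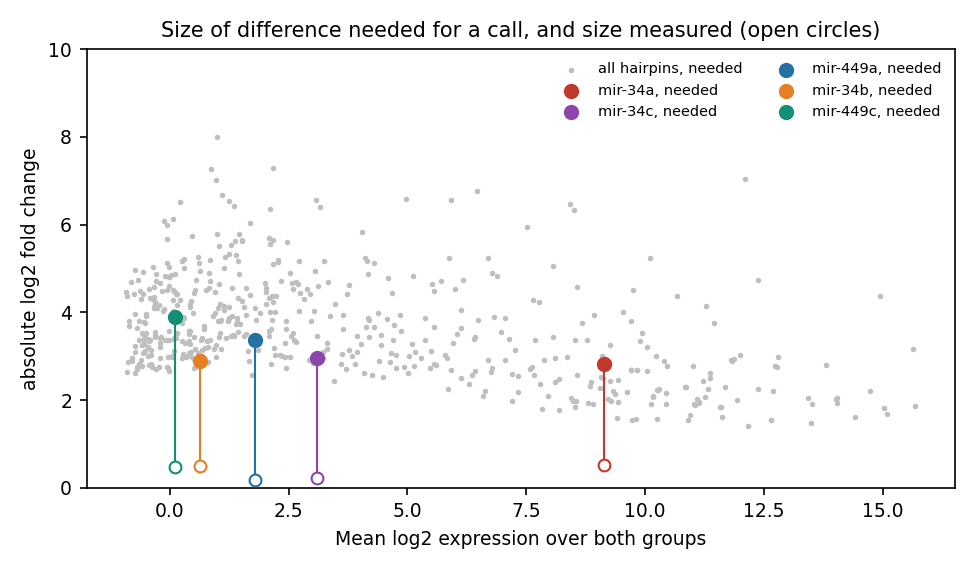
Grey points give, for every hairpin, the absolute log2 fold change that would have been called, against the mean log2 expression given by the authors' deposited table. Filled coloured points are the same for the family (2.81 for mir-34a to 3.90 for mir-449c), and the open circle under each is the size measured (0.18 to 0.53), so every member fell short by more than 2 on the log2 scale.

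The rows most like mir-34a, by distance in mean log2 expression and log2 fold change together, were mir-3473f (distance 0.31), mir-501 (0.37) and mir-142a (0.57). In the authors' deposited table mir-142a, a marker of blood-derived cells, had a mean log2 expression of 9.70 and a log2 fold change of −0.46, with an adjusted p by limma of 0.833. The likeness rests on 2 summary values of 1 comparison and not on a pattern over libraries.

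Other miRNAs tied to p53 were described beside the family. Those reported, mostly in human cells, to be induced or processed with the help of p53 numbered 14, of which 13 had a row, mir-605 being the exception. Of these mir-141 and mir-200c also stand on the epithelial list and mir-22 on the myeloid list. None was called in either direction, against the background of 5.57%, and 1 had an unadjusted p under 0.05, as had 17.6% of all hairpins. As deposited, 10 of the 13 values were positive, but after recentring by 0.34 the split was 6 positive and 7 negative. The list's median log2 fold change was 0.18 as deposited and −0.16 after recentring, beside 0.09 and −0.25 over all hairpins. Recentred by the median of all hairpins instead, the list's median was 0.09, with 8 positive and 5 negative. Its sign thus depends on the scaling, while it stood slightly above all hairpins under each. The smallest p belonged to mir-200c, an epithelial miRNA, with a log2 fold change of 2.11 in the authors' deposited table (adjusted p by limma 0.261) and a mean log2 expression of 2.55. Next came mir-107, hosted by the pantothenate kinase gene Pank1, at 0.81 in the authors' deposited table (adjusted p by limma 0.472). In the authors' deposited table mir-194-2, from a cluster with mir-192, was at −1.08 (adjusted p by limma 0.509). Its copy mir-194-1 had the opposite sign, at 1.11 in the authors' deposited table (adjusted p by limma 0.530).

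The 6 hairpins whose mature strands were reported to repress p53 mRNA, again mainly in human cells, were all positive as deposited, and 5 after recentring by 0.34. Of all 539 hairpins, 284 were positive as deposited and 221 after that recentring. None of the 6 was called, against 5.57% of all hairpins, and 2 had an unadjusted p under 0.05, as had 17.6% of all hairpins. The authors' deposited table gives mir-30d a log2 fold change of 1.61 (95% interval 0.39 to 2.83, adjusted p by limma 0.123). Its value for mir-25, of the miR-106b-25 cluster, was 1.11 in the authors' deposited table (95% interval 0.27 to 1.96, adjusted p by limma 0.123). After these came mir-125b-2, at 0.45 in the authors' deposited table (adjusted p by limma 0.630). Its copy mir-125b-1, also among the 6, was at 0.42 in the authors' deposited table (adjusted p by limma 0.760). The median log2 fold change of these 6 was 0.78, beside −0.22 for the miR-34 and miR-449 hairpins and 0.09 over all hairpins. After recentring by 0.34 it was 0.44, beside −0.56 for the family and −0.25 over all hairpins. Their median level was high, at 10.54 in mean log2 expression, although mir-33 was at 2.88 and mir-504 at 2.13 in the authors' deposited table. The most abundant 180 hairpins of the whole table had a median log2 fold change of 0.34.

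**Figure D4:**
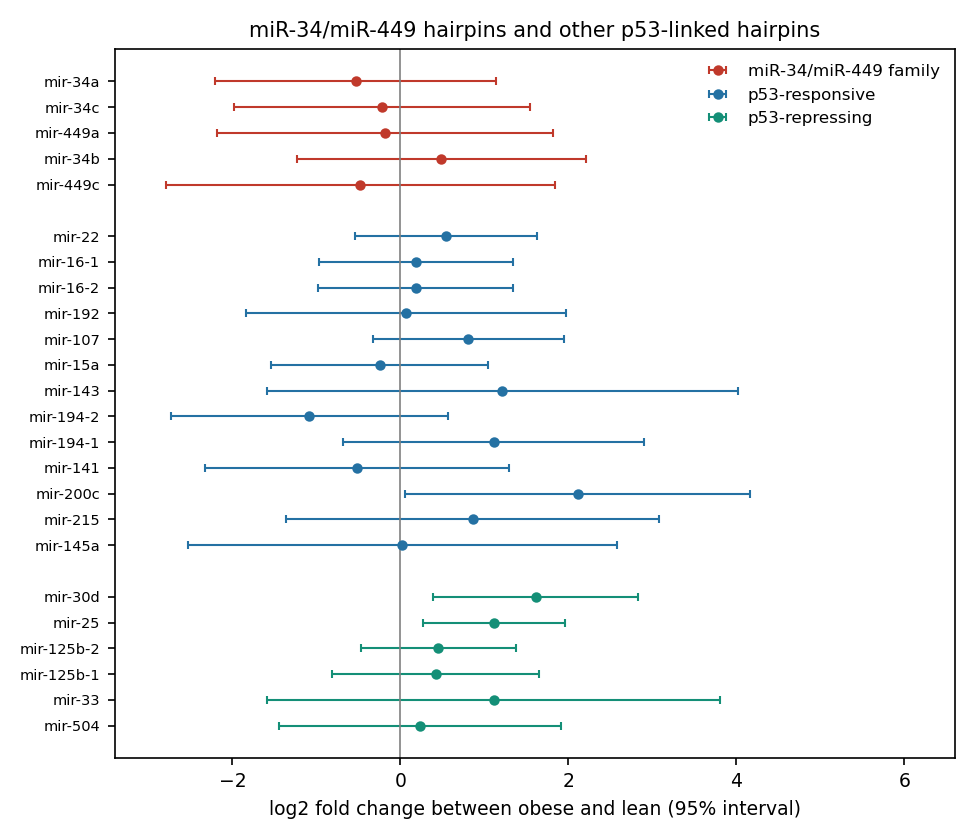
Points are log2 fold changes of the authors' deposited table and lines 95% intervals, with each list in order of mean log2 expression: the family in red, 13 p53-responsive hairpins in blue and 6 p53-repressing hairpins in green. The family's intervals all include 0, and those of mir-200c, mir-30d and mir-25 do not, although none of the hairpins shown had an adjusted p under 0.05.

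Marker lists give the setting of the family's levels. All 7 myeloid hairpins had a row, and their mean log2 expression ran from 4.17 for mir-511 to 15.02 for mir-22 in the authors' deposited table. No myeloid marker of the list was thus without a value in these macrophage exosomes, which also held for the adipocyte and epithelial lists. Of the 7, 2 were called, against 5.57% of all hairpins: mir-155 on the positive side and mir-511, from an intron of the mannose receptor gene Mrc1, on the negative side (−4.70, adjusted p by limma 0.0148, in the authors' deposited table). The 7 adipocyte-associated hairpins, which macrophages may also express, ranged from 0.97 for mir-193b to 14.04 for mir-378a in mean log2 expression. Of these 5 were positive and 2 negative as deposited, and 4 and 3 after recentring by 0.34. The 1 called, against 5.57% of all hairpins, was mir-365-2 on the negative side (−3.75, adjusted p by limma 0.0266, in the authors' deposited table). Its copy mir-365-1, which encodes the same mature miR-365, was at 0.98 (adjusted p by limma 0.591) in the authors' deposited table, and mir-103-2 was at 1.11 (adjusted p by limma 0.395) in the same authors' deposited table.

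The 8 epithelial hairpins had low levels, from −0.06 for mir-375 to 3.62 for mir-141 in mean log2 expression. The range from 0.12 to 3.10 covered by mir-34b, mir-34c, mir-449a and mir-449c falls within it, and mir-34a lies outside it. No epithelial hairpin was called, against 5.57% of all hairpins, while 3 of 8 had an unadjusted p under 0.05, against 17.6% of all hairpins, led by mir-429 at 2.30 in the authors' deposited table (adjusted p by limma 0.123). Positive values numbered 5 of 8 as deposited and 4 after recentring by 0.34. Which cells the low-level family members came from was not tested.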

How the data were processed

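Small RNA of ATM exosomes was sequenced in 14 libraries, 7 obese and 7 lean, grouped by their titles. Of tools, the submitters' processing notes list Novoalign, Trimmomatic 0.30, limma, edgeR, FastQC and MultiQC, with no role for any. Build, miRNA annotation, normalization, filters and the treatment of reads with several matches are not stated there, although they decide what a row counts. The authors deposited 1 table of 539 hairpins. Per the file headers, its fold change and mean expression are log2 values, t is a score, B is a natural log of odds, and there is an unadjusted and an adjusted p-value. It holds 0 columns of values per library, so depth is unknown, counting intervals were not given, and the planned fit to libraries was replaced by the authors' comparison.

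Adjusting the deposited p by Benjamini-Hochberg over all 539 rows gave back the adjusted p (largest difference 1.46e-14). The deposited t and p give 17.9 degrees of freedom, where 14 libraries in 2 groups leave 12. Standard errors are fold change over t, and intervals cover 95% at 17.9 degrees of freedom (Python 3.11.15, scipy 1.17.1). Simulated data drawn under the same assumptions tested these steps as arithmetic only, not whether the assumptions hold for these libraries. Named hairpins are all family members with a row, every called hairpin and the 3 (marker lists: 2) of smallest p in each list, the 3 rows closest to mir-34a, and mir-155 for the sign. Other hairpins were named beyond this rule, after their values were seen. These are mir-22, mir-193b, mir-375, mir-378a and mir-141 as ends of a range or members of 2 lists. So are mir-365-1, mir-194-1 and mir-125b-1 as copies, mir-192 as a cluster neighbour, and mir-33 and mir-504 for their levels. The hairpin mir-605 is named as having no row. Members and lists were chosen with earlier results of these data known. Sequences are RefSeq's (GRCm38.p6) and matched 5 of 6 hairpin names. Loci are GENCODE M21's.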

Additional observations from a re-analysis of the deposited data

How the results depend on the processing

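Under 8 alternatives (an adjusted p under 0.1, at least a 2-fold difference, Bonferroni adjustment, recentring by 0.34 or 0.09, a mean log2 expression of at least 3.32, 1 row per stem, and residual degrees of freedom alone), none of the 5 family members was called. The lowest unadjusted p of a member by limma was 0.513, so only the recentrings could have brought a call. For members, the outcome of the other alternatives was fixed in advance and is no test. Only the recentrings change a fold change, and as both subtract a positive value, mir-34b is the 1 member whose sign they could have turned, which they did not. The lowest adjusted p of a family member was 0.641, for mir-34a, at a log2 fold change of −0.87 after recentring by 0.34. The value of mir-34b was 0.15 with the same recentring. With the expression minimum, mir-34b, mir-34c, mir-449a and mir-449c have no value. Over the whole table, Bonferroni adjustment left 11 calls (6 positive, 5 negative), with 1 in the myeloid and 0 in the adipocyte list. Residual degrees of freedom alone left 19 calls (10 negative), with 0 in the adipocyte list. An adjusted p under 0.1 gave 19 positive calls. These follow from the stricter or looser thresholds themselves. No paired analysis was possible because values of single libraries are not part of the table, and leaving out replicates could not be run for the same reason. The depth behind each value is unknown.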
